A study of Mus musculus with 16 samples.

Results

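Sterol regulatory element-binding proteins (SREBPs) are transcription factors that drive the synthesis of fatty acids and cholesterol, and the transcripts described here are 39 mouse genes of that programme. The genes were chosen by name, as SREBP genes, their partners and enzymes of lipid synthesis, and each was found on the arrays through the RefSeq accession of its probes. Earlier results of these data were known when the genes were chosen. Of the 39 genes, 38 had a probe that stood well above background on all 4 arrays of at least 1 group, among 21281 genes tested in all. The 38 fall into 7 regulators, 7 genes of fatty acid synthesis and supply, 6 of 7 genes of elongation and desaturation, and 18 genes of sterol steps. Fads2, a fatty acid desaturase gene, had 1 probe, which stood well above background on 1 fasted mFoxO-TKO, 2 fed mFoxO-TKO, 1 fasted WT and 1 fed WT array, and it was not tested. The probes used for the other 38 were well above background on all 16 arrays, so the filter on dim probes removed none of them for being low in 1 group.

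Quadriceps RNA was taken from males 8 weeks old, 1 array per mouse and 4 mice per group, in a crossed design of genotype and feeding. The groups were mFoxO-TKO mice fasted for 24 h, mFoxO-TKO mice fed ad libitum, wild-type (WT) mice fasted for 24 h and WT mice fed ad libitum, and the fast was kept in individual cages. In mFoxO-TKO mice the transcription factor genes Foxo1, Foxo3 and Foxo4 were deleted by a Cre recombinase under the human α-actin (HSA) promoter, a genotype also written mFoxO1,3,4-/-, so cells of the muscle that are not muscle fibres keep these genes by design. The design asks what a day without food does to each transcript with and without muscle FoxO. Because the RNA is that of a whole muscle, fewer cells of a type and less RNA per cell cannot be told apart. A level is the log2 of the processed signal minus the 75th percentile of that array, so 0 is the signal at that percentile, and levels of different genes are not compared because each probe has its own brightness. A change is 1 group mean minus another on that scale, given ± its standard error from the fit in limma, and a gene is said to rise or fall where its adjusted p is under 0.05.

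SREBPs are made as membrane proteins of the endoplasmic reticulum, held there by INSIG proteins through the escort protein SCAP. When sterols are scarce, or when insulin acts, SCAP carries them to the Golgi, where cleavage frees the part that enters the nucleus. The form SREBP-1c, from Srebf1, is best known for fatty acid genes, and SREBP-2, from Srebf2, for cholesterol genes, and their promoters commonly also bind the factor NF-Y at a CCAAT box. Skeletal muscle makes less fat than liver or adipose tissue, and there SREBP-1c is known to respond to insulin and feeding.

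The knockout was visible at Foxo1 and Foxo4. Foxo1 had levels of 1.55, 1.53, 1.53 and 1.66 in fasted mFoxO-TKO muscle, against 5.56, 4.99, 4.73 and 4.70 in fasted WT muscle. In fed mice it had 1.0, 0.83, 1.40 and 0.42 in mFoxO-TKO muscle and 2.69, 2.86, 2.43 and 2.80 in WT muscle. The genotypes did not overlap in either state, and Foxo1 differed by -3.42 ± 0.21 (10.7-fold lower, adjusted p = 1.16e-07) in fasted and -1.78 ± 0.21 (3.43-fold lower, adjusted p = 3.07e-04) in fed mice, mFoxO-TKO minus WT. Foxo4 was well above background on none of the mFoxO-TKO arrays and on all 8 WT arrays, and the dim Foxo3 probe did not pass in either comparison (-0.78 ± 0.27 (adjusted p = 0.0716) in fasted and 0.71 ± 0.27 (adjusted p = 0.264) in fed mice). The positions of these probes against the deleted exons are not known here. Between 45.0% and 75.2% of spots were well above background on an array, and 0 were saturated. The 7 skeletal muscle markers, among them Ckm and Acta1, were all measured, and none of them changed in any comparison. Replicate 1 of fasted mFoxO-TKO muscle stood apart on the second principal component of 19335 genes, at a score of 78.8 where the next array had 29.5.

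Fasting lowered a broad set of these transcripts in both genotypes. In mFoxO-TKO mice 14 of 38 genes fell, 1 rose and 23 did not pass, whereas 5.89% of all genes fell and 5.23% rose. In WT mice 18 of 38 fell, 2 rose and 18 did not pass, where 12.3% of all genes fell and 12.6% rose. The median change of the 38 genes was -0.33 in mFoxO-TKO and -0.33 in WT mice, beside 0.00 and -0.02 over all genes tested. The 14 genes that fell in mFoxO-TKO mice all fell in WT mice as well. They were Srebf1, Srebf2 and Thrsp among the regulators, Fasn, Acaca and Acly of fatty acid synthesis, Elovl6, Scd2 and Fads1 of chain modification, and Mvk, Idi1, Fdps, Sqle and Msmo1 of the sterol steps. A further 4 genes, Insig2, Scd1, Nsdhl and Dhcr7, passed as lower in WT mice but not in mFoxO-TKO mice, and Fdft1 passed as higher in WT mice but not in mFoxO-TKO mice. Acacb rose in both. The difference between the 2 fasting effects is a separate test, given with the knockout results, and 0 of the 38 genes passed it.

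**Figure D1:**
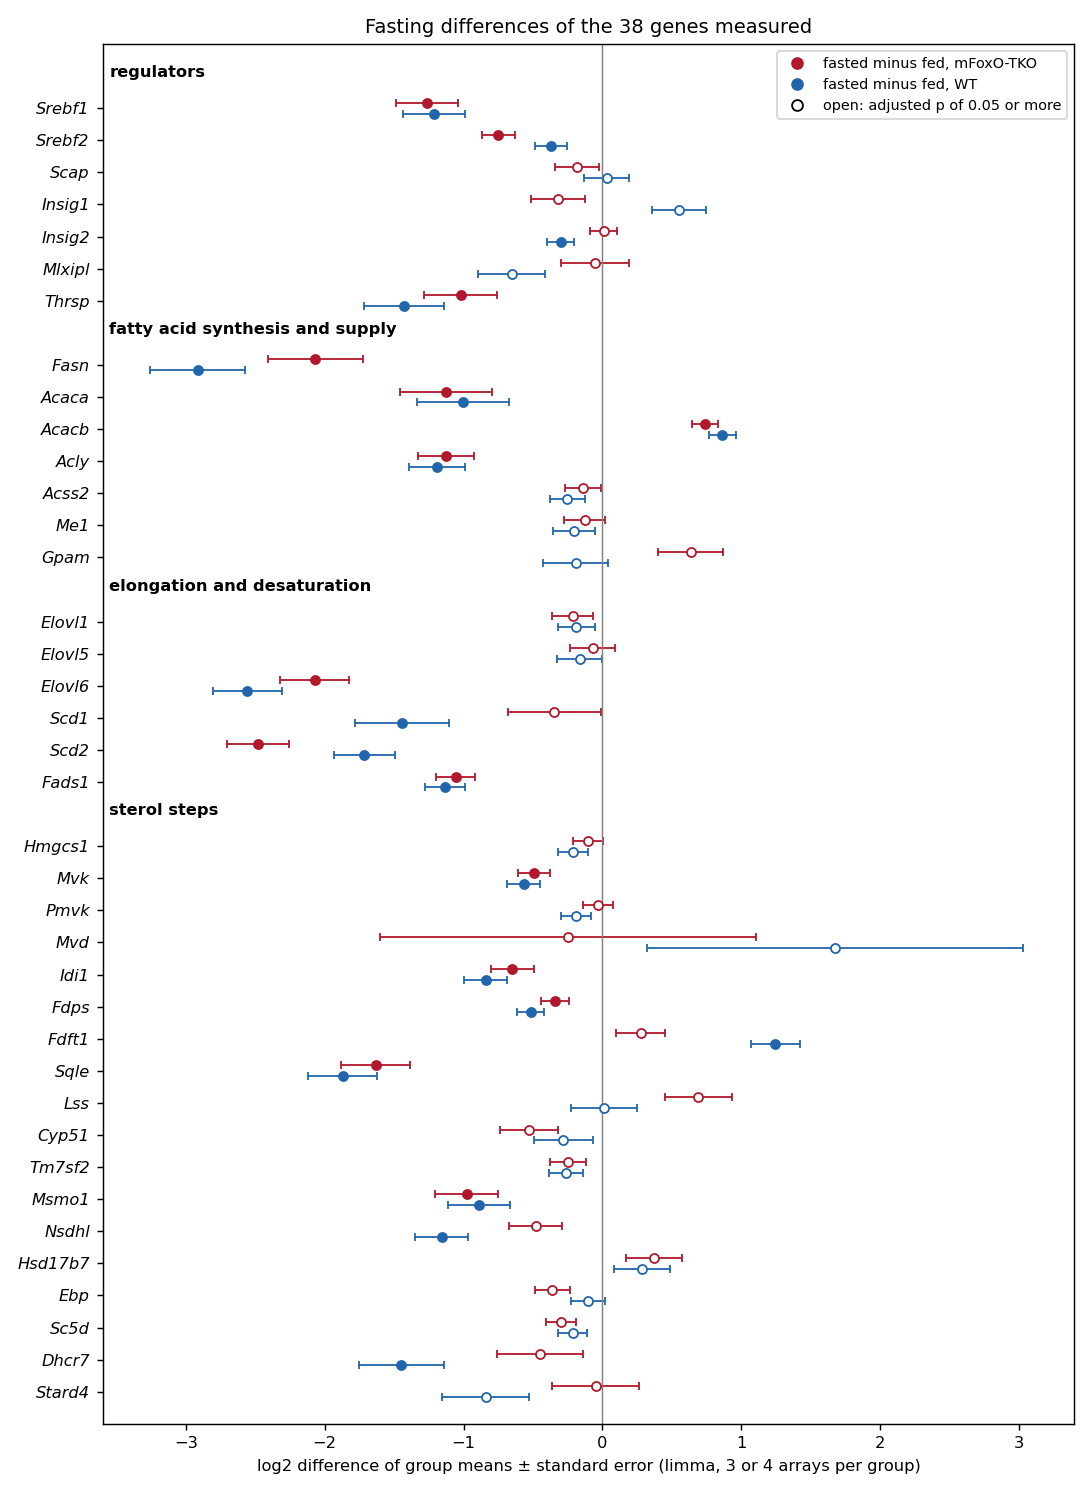
Change on fasting (fasted minus fed, log2, x axis) of the 38 genes measured, by role, in mFoxO-TKO mice (red, upper point) and WT mice (blue, lower point), with standard errors from limma as bars and open points where the adjusted p was 0.05 or more. Most filled points lie left of 0 in both genotypes, with Acacb to the right in both and Fdft1 to the right in WT mice, and the wide bars of Mvd come from 1 WT array.

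These counts rest on 3 or 4 arrays per group. Of the 15 calls in mFoxO-TKO mice, 10 held in all 16 fits that left out 1 array, and of the 20 calls in WT mice, 17 did. The count of falling genes ranged from 9 to 15 in mFoxO-TKO mice, at 9 without fasted mFoxO-TKO replicate 3 and at 14 without replicate 1 of that group, and from 15 to 20 in WT mice. The count of rising genes was 2 in mFoxO-TKO mice without fed replicate 1 or fasted replicate 1 or 2. Each genotype and state had 2 mice on each of 2 slides. Within slide 1, all 13 called genes that could be fitted in mFoxO-TKO mice and all 18 in WT mice had the direction of the whole, and so did all 15 and all 20 within slide 2. The genes were called on these same arrays, so the shared direction is no independent support. Of them, 1 of the 13 and 9 of the 18 passed within slide 1, and 8 of the 15 and 13 of the 20 within slide 2. The replicate number, which pairs mice that shared a slide, gave 16 genes lower and 2 higher in mFoxO-TKO mice when it entered the fit as a block, adding Cyp51 (adjusted p = 0.0236) and Sc5d (adjusted p = 0.0304) as lower and Gpam (adjusted p = 0.027) as higher.

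Promoter sequence is shown for Fasn, Elovl6 and Mvk, which fell on fasting in both genotypes, and for Hmgcs1, which passed in neither, to set the CCAAT box, the sterol response element and the FoxO motif beside the values. RefSeq promoter windows (assembly GRCm38.p6) of 300 bases, from 250 before to 50 after the start site, were at hand for 32 of the 39 genes, 44 windows in all. Each is written 5′ to 3′ on the strand of its gene, and capitals mark every match on either strand to the NF-Y motif CCAAT, the sterol response element TCACNCCAC or the FoxO motif GTAAACA.
Fasn (chr11:120824498-120824797, minus strand): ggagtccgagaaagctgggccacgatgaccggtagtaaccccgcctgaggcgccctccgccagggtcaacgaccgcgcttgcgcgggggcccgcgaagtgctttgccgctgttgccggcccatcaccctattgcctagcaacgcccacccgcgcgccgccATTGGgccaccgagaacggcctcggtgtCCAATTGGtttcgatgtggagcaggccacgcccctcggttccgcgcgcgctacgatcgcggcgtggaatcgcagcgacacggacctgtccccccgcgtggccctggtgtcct
Elovl6 (chr3:129532136-129532435, plus strand): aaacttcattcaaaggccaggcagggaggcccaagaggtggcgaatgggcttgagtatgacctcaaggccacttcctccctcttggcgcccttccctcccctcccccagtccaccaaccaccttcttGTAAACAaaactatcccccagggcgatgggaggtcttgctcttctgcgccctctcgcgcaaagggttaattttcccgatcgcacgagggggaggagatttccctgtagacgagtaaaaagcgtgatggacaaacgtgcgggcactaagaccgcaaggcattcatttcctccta
Hmgcs1 (chr13:119690101-119690400, plus strand): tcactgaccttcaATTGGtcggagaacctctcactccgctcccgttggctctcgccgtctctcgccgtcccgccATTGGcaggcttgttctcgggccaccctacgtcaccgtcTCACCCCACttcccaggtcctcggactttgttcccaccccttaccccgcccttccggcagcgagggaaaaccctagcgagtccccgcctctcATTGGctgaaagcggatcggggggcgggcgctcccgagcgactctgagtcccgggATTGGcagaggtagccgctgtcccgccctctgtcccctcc
Mvk (chr5:114444019-114444318, plus strand): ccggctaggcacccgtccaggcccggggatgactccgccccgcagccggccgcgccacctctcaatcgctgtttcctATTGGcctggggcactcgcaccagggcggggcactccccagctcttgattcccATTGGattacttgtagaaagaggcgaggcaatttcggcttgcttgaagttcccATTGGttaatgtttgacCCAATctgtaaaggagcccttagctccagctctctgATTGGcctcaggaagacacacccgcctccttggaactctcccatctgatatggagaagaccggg
In the Fasn window 2 of the 3 NF-Y matches, at -62 and -59, overlap on opposite strands and form 1 run of capitals. Mvk holds 5 NF-Y matches, Hmgcs1 holds 4 and the sterol response element at -137, and Elovl6 holds the FoxO motif at -123 and no NF-Y motif. An NF-Y motif was present in 28 of the 32 genes (87.5%), against 41.1% of 27025 genes with a window, and in 65.9% of the 44 windows against 37.4% of 32851 windows in all. The exact sterol response element was found in Mlxipl and Hmgcs1 (6.25% of the 32 genes, 1.44% of all genes). The FoxO motif was found in Elovl6 alone of the 32 (3.12%, against 4.05% of all genes). Among genes that fell on fasting in both genotypes, 8 of the 10 with a window held the NF-Y motif, all but Acaca and Elovl6. Among genes that passed in neither genotype, 16 of 17 held it, all but Scap. These are matches of letters in a short window, and looser forms of the elements were not searched for.

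**Figure D2:**
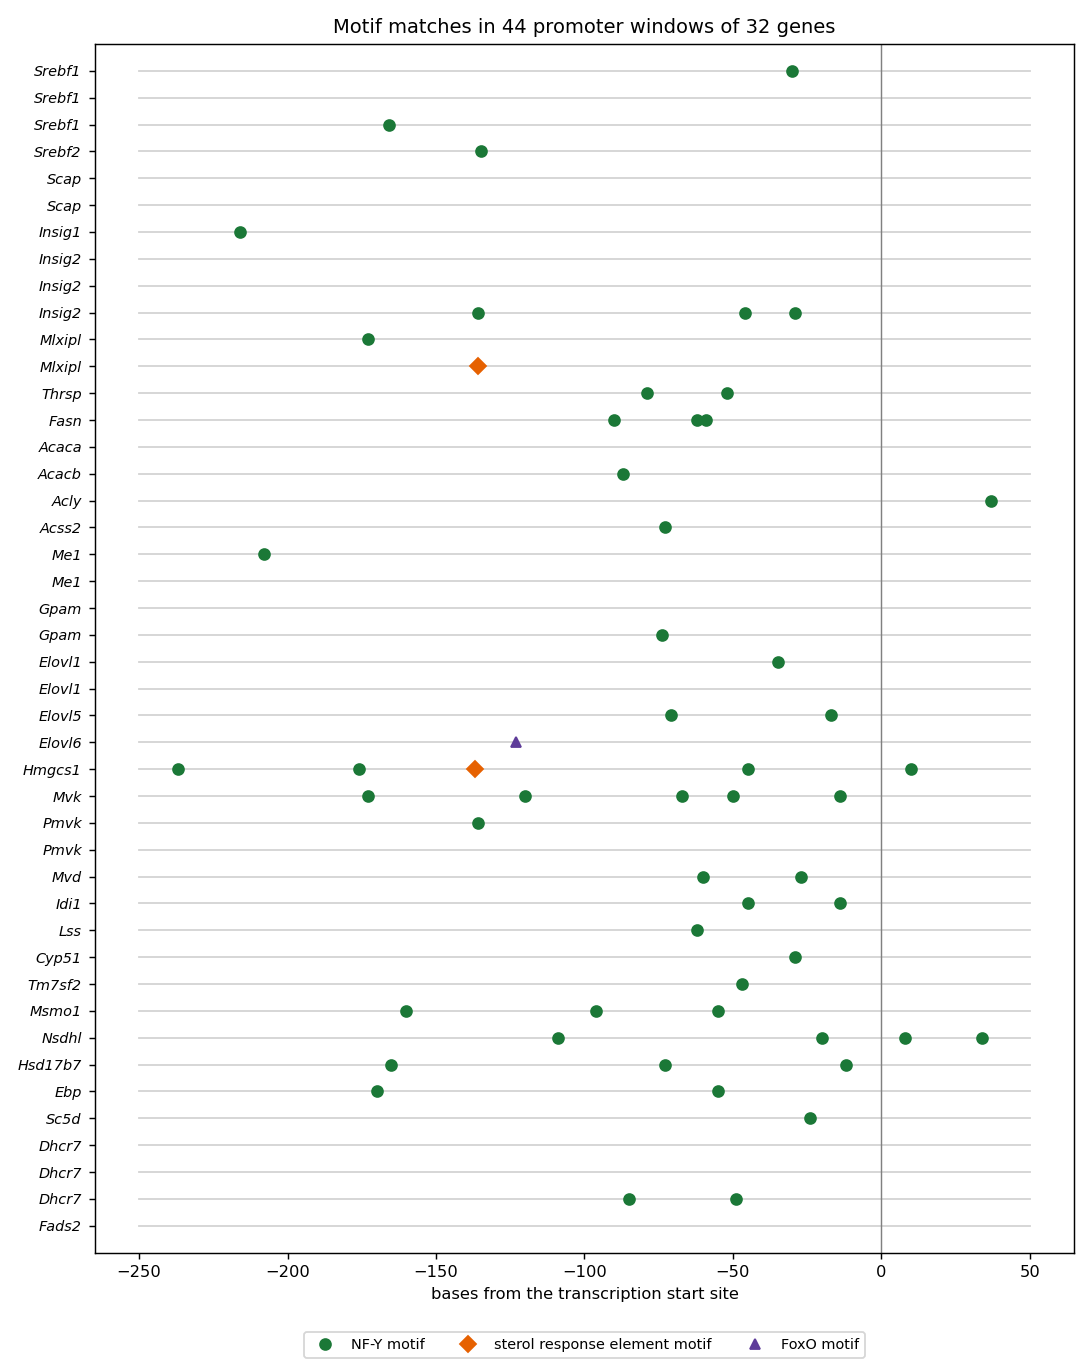
Position of motif matches (x axis, bases from the transcription start site) in each of 44 RefSeq promoter windows of 32 genes (1 line per window, genes with several start sites repeated). NF-Y matches (green circles) lie in most windows, the sterol response element (orange diamonds) in Mlxipl and Hmgcs1, and the FoxO motif (purple triangle) in Elovl6.

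Among the regulators, both SREBP genes and Thrsp were lower after fasting in either genotype. Srebf1 had levels of -2.40, -2.64, -2.91 and -2.44 in fasted mFoxO-TKO muscle, against -1.38, -1.33, -1.43 and -1.21 in fed mFoxO-TKO muscle. In WT mice it had -3.07, -3.12, -3.13 and -2.85 in fasted and -1.05, -1.69, -2.43 and -2.14 in fed muscle. No fasted array reached a fed array of its genotype, and the fed WT arrays were the most widely spread of the 4 groups. Srebf1 fell by 1.26 ± 0.22 in mFoxO-TKO mice (2.4-fold lower, adjusted p = 0.00254) and by 1.21 ± 0.22 in WT mice (2.32-fold lower, adjusted p = 0.00108). The 2 falls differed by -0.05 ± 0.32 (adjusted p = 0.973), mFoxO-TKO minus WT. The deposited gene name does not separate the Srebf1 transcripts that encode SREBP-1a and SREBP-1c.

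Srebf2 had levels of -2.57, -2.41, -2.78 and -2.49 in fasted mFoxO-TKO muscle, against -1.74, -1.67, -1.86 and -1.98 in fed mFoxO-TKO muscle. Its WT levels were -2.79, -2.65, -2.74 and -2.43 in fasted and -2.23, -2.26, -2.45 and -2.20 in fed muscle. The states were apart in mFoxO-TKO mice, while in WT mice 1 fasted array lay just above the lowest fed array. The fall was -0.75 ± 0.12 (1.68-fold lower, adjusted p = 0.00115) in mFoxO-TKO mice and -0.37 ± 0.12 (1.29-fold lower, adjusted p = 0.0308) in WT mice. The WT call was lost without any 1 of 6 arrays, fed replicates 1, 2 and 4 and fasted replicates 1, 2 and 3, with changes between -0.44 and -0.32 over all 16 omissions. A second, dimmer Srebf2 probe gave -0.67 (adjusted p = 0.2) and -0.05 (adjusted p = 0.942) and passed in neither genotype.

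Thrsp encodes Spot 14, a protein tied to fat synthesis that feeding and thyroid hormone induce. Its levels were 2.11, 2.04, 1.65 and 2.0 in fasted mFoxO-TKO muscle, against 3.79, 2.31, 2.94 and 2.84 in fed mFoxO-TKO muscle. In WT mice they were 2.22, 1.81 and 2.38 in fasted muscle, where 1 array was left out as an uneven spot, and 4.04, 3.29, 3.39 and 3.54 in fed muscle. The fasted arrays lay below all fed arrays of their genotype. Thrsp fell by 1.02 ± 0.27 in mFoxO-TKO mice (adjusted p = 0.0248), a call lost without fed or fasted mFoxO-TKO replicate 3, and by 1.43 ± 0.29 in WT mice (adjusted p = 0.00233); over all omissions the mFoxO-TKO change ran between -1.24 and -0.75.

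Of the proteins that hold SREBPs back, Insig2 fell slightly in WT mice and Insig1 did not pass on fasting. Insig2 had a change of 0.01 ± 0.10 (adjusted p = 0.971) in mFoxO-TKO mice and of -0.30 ± 0.10 (adjusted p = 0.0333) in WT mice, the WT call being lost without any 1 of 6 arrays (fed replicates 1, 2 and 4, fasted replicates 1, 3 and 4; -0.34 to -0.26 over all omissions). Insig1, itself a target of SREBP-2, had levels of -1.84, -2.61, -2.86 and -2.39 in fasted and -2.07, -1.96, -2.02 and -2.37 in fed mFoxO-TKO muscle. WT mice had -1.54, -1.65, -1.57 and -1.05 in fasted and -1.79, -2.0, -2.18 and -2.05 in fed muscle. The 4 fasted WT arrays were the highest of all 16, at a change of 0.55 ± 0.20 (adjusted p = 0.052) in WT mice beside -0.32 ± 0.20 (adjusted p = 0.349) in mFoxO-TKO mice. The WT change passed without fasted mFoxO-TKO replicate 1 (adjusted p = 0.016). Scap, the escort protein, had a change of -0.18 ± 0.16 (adjusted p = 0.539) in mFoxO-TKO and 0.03 ± 0.16 (adjusted p = 0.925) in WT mice. Mlxipl encodes ChREBP, a glucose-responsive factor that shares targets with SREBP-1c. It had a change of -0.05 ± 0.24 (adjusted p = 0.927) and -0.65 ± 0.24 (adjusted p = 0.0634) in the same 2 comparisons. Without fasted mFoxO-TKO replicate 1 its WT change passed (adjusted p = 0.00637). That is not a WT array, so the WT estimate stayed at -0.65 and the spread used in the test changed. A second Mlxipl probe, well above background on all arrays, did not show a WT fall. It had 2.15, 2.52 and 2.63 in fasted WT muscle, with 1 array left out, and 1.99, 2.02, 2.27 and 2.36 in fed WT muscle.

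In fatty acid synthesis the enzymes that turn citrate into palmitate fell together. Of the 7 genes of synthesis and supply, 3 fell and 1 rose in each genotype. Fasn, the fatty acid synthase, had levels of -2.24, -2.0, -2.57 and -2.79 in fasted mFoxO-TKO muscle, against 0.07, -0.92, -0.33 and -0.16 in fed mFoxO-TKO muscle. In WT muscle its levels were -2.83, -3.08, -3.46 and -1.46 in fasted and 0.48, 0.19, 0.03 and 0.15 in fed muscle. Fasted and fed arrays were far apart in both genotypes, with fasted WT replicate 4 the highest of the fasted arrays. The fall was -2.07 ± 0.34 (4.19-fold lower, adjusted p = 0.0017) in mFoxO-TKO mice and -2.92 ± 0.34 (7.55-fold lower, adjusted p = 2.96e-05) in WT mice, the largest fall of any of the 38 genes in WT mice, and the 2 differed by 0.85 ± 0.49 (adjusted p = 0.529).

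Acly, which splits citrate to give cytosolic acetyl-CoA, had levels of 2.02, 2.10, 2.02 and 2.02 in fasted and 3.70, 2.66, 3.19 and 3.12 in fed mFoxO-TKO muscle. In WT mice it had 2.32, 2.20, 2.01 and 2.24 in fasted and 3.83, 3.42, 2.91 and 3.38 in fed muscle. The fasted arrays were below all fed arrays and closer to each other than the fed ones, with falls of -1.13 ± 0.20 (2.18-fold lower, adjusted p = 0.00256) in mFoxO-TKO and -1.19 ± 0.20 (2.29-fold lower, adjusted p = 5.16e-04) in WT mice. Acaca, the cytosolic acetyl-CoA carboxylase that commits acetyl-CoA to synthesis, had 0.79, 2.6, 2.34 and 2.52 in fasted and 3.49, 2.91, 3.06 and 3.30 in fed mFoxO-TKO muscle. Its WT levels were 1.81, 2.23, 2.14 and 2.71 in fasted and 3.49, 3.29, 2.86 and 3.26 in fed muscle. Fasted arrays again lay below fed arrays, and the lowest by far was fasted mFoxO-TKO replicate 1, an array that was not the lowest on either of the 2 other Acaca probes. The falls were -1.13 ± 0.33 (2.18-fold lower, adjusted p = 0.0402) in mFoxO-TKO and -1.01 ± 0.33 (2.01-fold lower, adjusted p = 0.0369) in WT mice; without fasted mFoxO-TKO replicate 1 the mFoxO-TKO fall was -0.70 ± 0.21 (adjusted p = 0.0434). The mFoxO-TKO call was lost without any 1 of 8 arrays (the 4 fed mFoxO-TKO arrays, fasted mFoxO-TKO replicate 3, fed WT replicates 2 and 4 and fasted WT replicate 2; -1.31 to -0.70 over all omissions), and the WT call without any 1 of 6 (fed replicates 1, 2 and 4 and fasted replicates 1, 2 and 3; -1.17 to -0.87).

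Acacb moved the other way from Acaca. It encodes the carboxylase at the mitochondrial surface, whose malonyl-CoA restrains fatty acid entry into mitochondria. Its levels were 5.72, 5.86, 5.66 and 5.76 in fasted mFoxO-TKO muscle, against 5.08, 4.82, 5.10 and 5.05 in fed mFoxO-TKO muscle. In WT mice they were 6.23, 6.22, 6.13 and 6.30 in fasted and 5.38, 5.45, 5.21 and 5.38 in fed muscle. All 8 fasted arrays lay above all 8 fed arrays, and the rise was 0.74 ± 0.10 (1.67-fold higher, adjusted p = 3.59e-04) in mFoxO-TKO and 0.86 ± 0.10 (1.82-fold higher, adjusted p = 1.58e-05) in WT mice. A second probe gave rises of 0.95 and 1.11 in the same order. The other 3 genes of the group passed in neither genotype: Acss2, which makes acetyl-CoA from acetate, with -0.14 and -0.25, Me1, the malic enzyme that supplies NADPH, with -0.13 and -0.21, and Gpam, which starts glycerolipid synthesis, with 0.64 and -0.19.

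**Figure D3:**
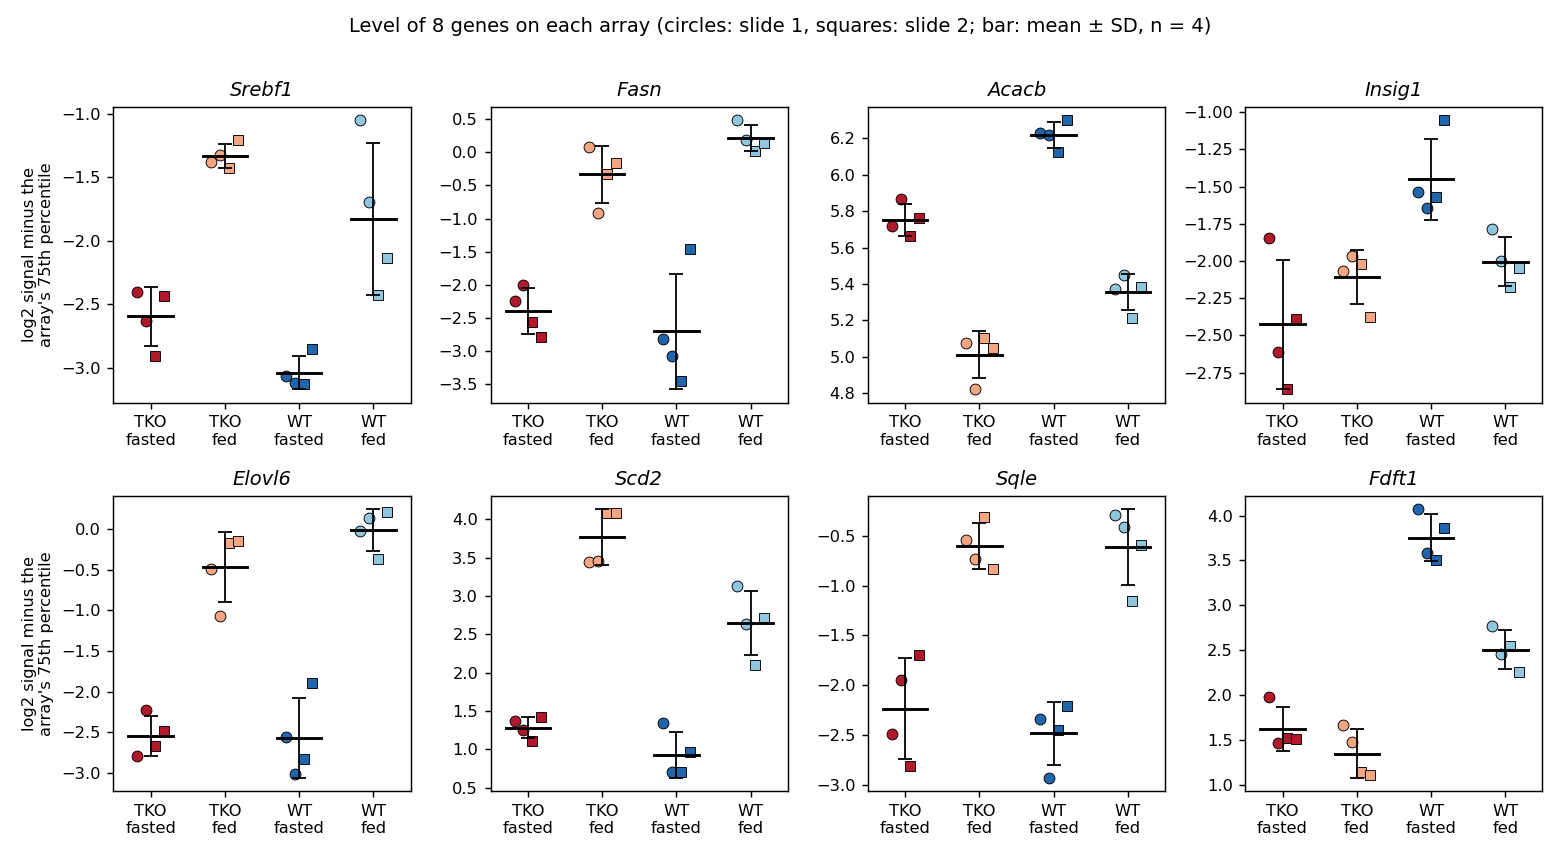
Level (y axis, log2 signal minus the 75th percentile of the array) of 8 genes on each array in fasted and fed mFoxO-TKO (TKO) and WT muscle, with circles for slide 1, squares for slide 2, and bars for mean ± SD of 4 arrays. Each gene has its own axis, and fasted arrays lie below fed arrays of their genotype for Srebf1, Fasn, Elovl6, Scd2 and Sqle and above them for Acacb, while Fdft1 is highest in fasted WT muscle.

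Genes of chain modification were among those with the largest falls. Of the 6 measured genes, 3 fell in mFoxO-TKO and 4 in WT mice, and 0 rose. Elovl6, which extends palmitate to stearate, had levels of -2.79, -2.23, -2.67 and -2.48 in fasted mFoxO-TKO muscle, against -0.49, -1.07, -0.17 and -0.15 in fed mFoxO-TKO muscle. WT mice had -2.56, -3.01, -2.83 and -1.89 in fasted and -0.03, 0.14, -0.37 and 0.20 in fed muscle. The states were apart in each genotype and the genotypes overlapped within each state. Its fall was -2.07 ± 0.25 (4.21-fold lower, adjusted p = 2.08e-04) in mFoxO-TKO mice and -2.56 ± 0.25 (5.89-fold lower, adjusted p = 5.76e-06) in WT mice.

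Of the desaturases that place the first double bond in stearate and palmitate, Scd2 fell in both genotypes and Scd1 passed in WT mice. Scd2 had levels of 1.37, 1.25, 1.1 and 1.42 in fasted and 3.44, 3.45, 4.08 and 4.09 in fed mFoxO-TKO muscle. In WT muscle its levels were 1.34, 0.70, 0.71 and 0.97 in fasted and 3.13, 2.64, 2.11 and 2.71 in fed muscle. Every fasted array was below every fed array, and fed mFoxO-TKO muscle stood above fed WT muscle on all 4 arrays. The fall was -2.48 ± 0.22 (5.58-fold lower, adjusted p = 2.92e-05) in mFoxO-TKO mice, the largest of the 38 genes there, and -1.72 ± 0.22 (3.28-fold lower, adjusted p = 6.14e-05) in WT mice. Scd1 had levels of 2.37, 3.47, 3.02 and 2.63 in fasted and 3.48, 2.81, 3.5 and 3.08 in fed mFoxO-TKO muscle. In WT mice it had 1.87, 2.53, 2.36 and 3.78 in fasted and 3.97, 4.28, 4.23 and 3.83 in fed muscle. Fasted and fed arrays overlapped in mFoxO-TKO mice and just separated in WT mice. Scd1 had a change of -0.34 ± 0.34 (adjusted p = 0.589) in mFoxO-TKO mice and fell by 1.44 ± 0.34 in WT mice (2.72-fold lower, adjusted p = 0.0054). The 2 fasting changes differed by 1.1 ± 0.48 (adjusted p = 0.338) for Scd1 and by -0.77 ± 0.31 (adjusted p = 0.296) for Scd2, mFoxO-TKO minus WT, and neither difference passed.

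Fads1, the delta-5 desaturase of polyunsaturated fatty acids, had levels of -1.10, -1.08, -0.93 and -0.77 in fasted and -0.05, -0.16, 0.34 and 0.22 in fed mFoxO-TKO muscle. Its WT levels were -1.44, -1.05, -1.46 and -1.04 in fasted and -0.07, -0.11, -0.27 and -0.01 in fed muscle. The states were apart in both genotypes, with falls of -1.06 ± 0.14 (2.08-fold lower, adjusted p = 4.77e-04) in mFoxO-TKO and -1.13 ± 0.14 (2.19-fold lower, adjusted p = 5.00e-05) in WT mice. Elovl1, an elongase of very long chains, had a change of -0.21 in mFoxO-TKO and -0.19 in WT mice, and Elovl5, an elongase of polyunsaturated chains, of -0.07 and -0.16, with none of these passing.

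Among the 18 sterol genes most of those that passed were lower after fasting. In mFoxO-TKO mice 5 fell, 0 rose and 13 did not pass, and in WT mice 7 fell, 1 rose and 10 did not pass. The median change was -0.32 in mFoxO-TKO and -0.27 in WT mice. Sqle, the squalene epoxidase that is a main control point of the pathway, had levels of -2.49, -1.94, -2.82 and -1.70 in fasted mFoxO-TKO muscle, against -0.54, -0.74, -0.31 and -0.83 in fed mFoxO-TKO muscle. WT mice had -2.34, -2.93, -2.45 and -2.21 in fasted and -0.29, -0.41, -1.15 and -0.59 in fed muscle. Fasted arrays were below fed arrays in each genotype, with falls of -1.63 ± 0.25 (3.1-fold lower, adjusted p = 0.00104) in mFoxO-TKO mice and -1.87 ± 0.25 (3.66-fold lower, adjusted p = 8.28e-05) in WT mice, the largest of the sterol genes in both.

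Upstream of squalene, the kinase gene Mvk, the isomerase gene Idi1 and the farnesyl diphosphate synthase gene Fdps fell in both genotypes. Idi1 had levels of 0.79, 1.11, 0.78 and 0.85 in fasted and 1.92, 1.39, 1.47 and 1.34 in fed mFoxO-TKO muscle, and 0.24, 0.78, 0.47 and 0.55 in fasted and 1.6, 1.39, 1.07 and 1.33 in fed WT muscle. The states did not overlap in either genotype. Its fall was -0.65 ± 0.16 (adjusted p = 0.0158) in mFoxO-TKO and -0.84 ± 0.16 (adjusted p = 0.00118) in WT mice, the mFoxO-TKO call being lost without fasted mFoxO-TKO replicate 3 (-0.72 to -0.52 over all omissions). Mvk fell by 0.49 ± 0.12 (adjusted p = 0.0134) in mFoxO-TKO and by 0.57 ± 0.12 (adjusted p = 0.00232) in WT mice, and its second probe gave -0.39 (adjusted p = 0.114) in mFoxO-TKO and -0.57 in WT mice. Fdps had a change of -0.34 ± 0.10 (adjusted p = 0.0387) and -0.52 ± 0.10 (adjusted p = 0.00145), and its mFoxO-TKO call was lost without any 1 of 8 arrays (the 4 fasted mFoxO-TKO arrays, fed mFoxO-TKO replicates 1, 3 and 4 and fed WT replicate 4; -0.38 to -0.30). Hmgcs1, the cytosolic synthase that makes HMG-CoA and holds the sterol response element shown above, passed in neither genotype (-0.11 ± 0.11 (adjusted p = 0.606) and -0.21 ± 0.11 (adjusted p = 0.173)), nor did the kinase gene Pmvk (-0.03 and -0.19).

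Downstream of lanosterol, Msmo1, the C-4 methyl sterol oxidase, had levels of 0.40, 0.39 and 0.65 in fasted and 1.62, 1.20, 1.66 and 1.36 in fed mFoxO-TKO muscle, and -0.07, 0.10, 0.78 and 0.95 in fasted and 1.33, 1.36 and 1.30 in fed WT muscle. A spot was left out in fasted mFoxO-TKO and in fed WT muscle, so n = 3 in each, and the states did not overlap. Its fall was -0.98 ± 0.22 (adjusted p = 0.0147) in mFoxO-TKO and -0.89 ± 0.22 (adjusted p = 0.011) in WT mice, with the mFoxO-TKO call lost without fasted mFoxO-TKO replicate 3 (-1.06 to -0.91 over all omissions). Dhcr7, which makes cholesterol from 7-dehydrocholesterol, had -1.69, -1.55, -0.92 and -1.56 in fasted and -1.06, -0.84, -1.20 and -0.81 in fed mFoxO-TKO muscle. In WT muscle its levels were -2.65, -2.18, -2.42 and -2.71 in fasted and -2.20, -0.59, -0.97 and -0.40 in fed muscle. Fed WT replicate 1 was low and reached into the fasted WT range, the remaining fed WT arrays were well above it, and in mFoxO-TKO mice fasted replicate 3 overlapped the fed arrays. Dhcr7 had a change of -0.45 ± 0.31 (adjusted p = 0.412) in mFoxO-TKO mice and fell by 1.45 ± 0.31 in WT mice (2.73-fold lower, adjusted p = 0.003). Nsdhl, which removes the C-4 carboxyl group, had a change of -0.48 ± 0.19 (adjusted p = 0.127) in mFoxO-TKO and -1.16 ± 0.19 (adjusted p = 4.32e-04) in WT mice, and its second probe gave -0.62 (adjusted p = 0.087) in WT mice. The mFoxO-TKO change of Nsdhl passed without fasted WT replicate 3 (adjusted p = 0.0311).

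Of the remaining sterol genes none passed in either genotype. Lss, which cyclises squalene epoxide to lanosterol, had a change of 0.69 ± 0.24 (adjusted p = 0.0816) in mFoxO-TKO and 0.01 ± 0.24 (adjusted p = 0.982) in WT mice, and its mFoxO-TKO change passed as a rise without fasted mFoxO-TKO replicate 1 (0.84, adjusted p = 0.0428). Cyp51, the lanosterol demethylase, had a change of -0.53 and -0.28, and the sterol reductase gene Tm7sf2 of -0.25 and -0.26. Hsd17b7, a ketosterol reductase, had a change of 0.37 and 0.29, the isomerase gene Ebp of -0.36 and -0.10, and the desaturase gene Sc5d of -0.30 and -0.21. Without fasted mFoxO-TKO replicate 1 the mFoxO-TKO change of Ebp passed as a fall (-0.48, adjusted p = 0.0158). Stard4, which carries cholesterol between membranes, had a change of -0.05 ± 0.32 (adjusted p = 0.947) and -0.84 ± 0.32 (adjusted p = 0.0658), and its WT change passed as a fall without fasted mFoxO-TKO replicate 1 (adjusted p = 0.0462). Mvd, the mevalonate diphosphate decarboxylase, had levels of -0.97, -0.45, 7.73 and -0.42 in fasted and 0.08, -0.40, -0.48 and -0.01 in fed WT muscle. Fasted WT replicate 3 stood far above all other arrays, at 7.73. In mFoxO-TKO mice the change of Mvd was -0.25 ± 1.35 (adjusted p = 0.938). The WT change of Mvd was 1.67 ± 1.35 (adjusted p = 0.426) with that array and -0.41 ± 0.21 (adjusted p = 0.2) without it.

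Fdft1 was the sterol gene that rose in WT mice. It encodes squalene synthase, the enzyme that commits farnesyl diphosphate to sterols. Its levels were 1.99, 1.48, 1.53 and 1.52 in fasted mFoxO-TKO muscle, against 4.07, 3.58, 3.51 and 3.86 in fasted WT muscle. In fed mice they were 1.67, 1.48, 1.15 and 1.11 in mFoxO-TKO and 2.78, 2.46, 2.55 and 2.26 in WT muscle. The 4 fasted WT arrays were the highest of the 16, and all 8 mFoxO-TKO arrays lay below all 8 WT arrays. On fasting, Fdft1 had a change of 0.27 ± 0.17 (adjusted p = 0.369) in mFoxO-TKO mice and rose by 1.25 ± 0.17 (2.37-fold higher, adjusted p = 1.24e-04) in WT mice. Against WT, mFoxO-TKO muscle differed by -2.13 ± 0.17 (4.37-fold lower, adjusted p = 2.02e-06) in fasted mice and -1.16 ± 0.17 (2.23-fold lower, adjusted p = 0.00293) in fed mice. The fasting changes differed by -0.97 ± 0.25 (adjusted p = 0.0565), with the adjusted p at 0.0082 when the replicate number was a block and at 0.0274 (-1.09 ± 0.24) without fasted mFoxO-TKO replicate 1. A second, far dimmer Fdft1 probe did not pass for WT fasting or for the knockout. Its WT fasting change had the other sign, at -0.28 (adjusted p = 0.781). The knockout differences kept their direction, at -0.87 (adjusted p = 0.372) in fasted and -0.83 (adjusted p = 0.677) in fed mice. That probe was well above background on 2 fasted mFoxO-TKO, 2 fed mFoxO-TKO, 3 fasted WT and 4 fed WT arrays.

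The genotypes were also compared within each feeding state, where counts this small do not set these genes apart from all genes. In fasted mice 1 of 38 genes was higher and 3 were lower in mFoxO-TKO than in WT muscle, where 5.42% of all genes were higher and 7.04% lower. In fed mice 1 was higher and 1 lower, where 0.648% of all genes were higher and 0.832% lower. The medians were 0.11 in fasted and -0.01 in fed mice, beside 0.01 and -0.01 over all genes. With another scaling, on probes detected on all arrays, 6 were higher and 3 lower in fasted mice, and the authors' own values gave 5 and 3; quantile normalization gave 3 and 3, and normexp background correction 0 and 3. In fed mice the authors' own values gave 1 higher and 2 lower. With the replicate number as a block, 3 were higher and 3 lower in fasted mice, adding Lss (0.73, adjusted p = 0.0494) and Pmvk (0.32, adjusted p = 0.0135), and in fed mice 2 were higher, adding Srebf2 (adjusted p = 0.0372). Srebf2 missed the threshold without the block (0.47 ± 0.12, adjusted p = 0.0645), although its 4 fed mFoxO-TKO arrays were above all fed WT arrays. Leaving out 1 array moved the count of genes higher in fasted mFoxO-TKO muscle between 0 (without fasted WT replicate 3 or 4) and 3 (without fed mFoxO-TKO replicate 1), with 2 without fasted WT replicate 2 or fasted mFoxO-TKO replicate 1, and that in fed muscle between 0 (without fed WT replicate 2 or 3 or fed mFoxO-TKO replicate 3) and 2 (without fed mFoxO-TKO replicate 4).

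**Figure D4:**
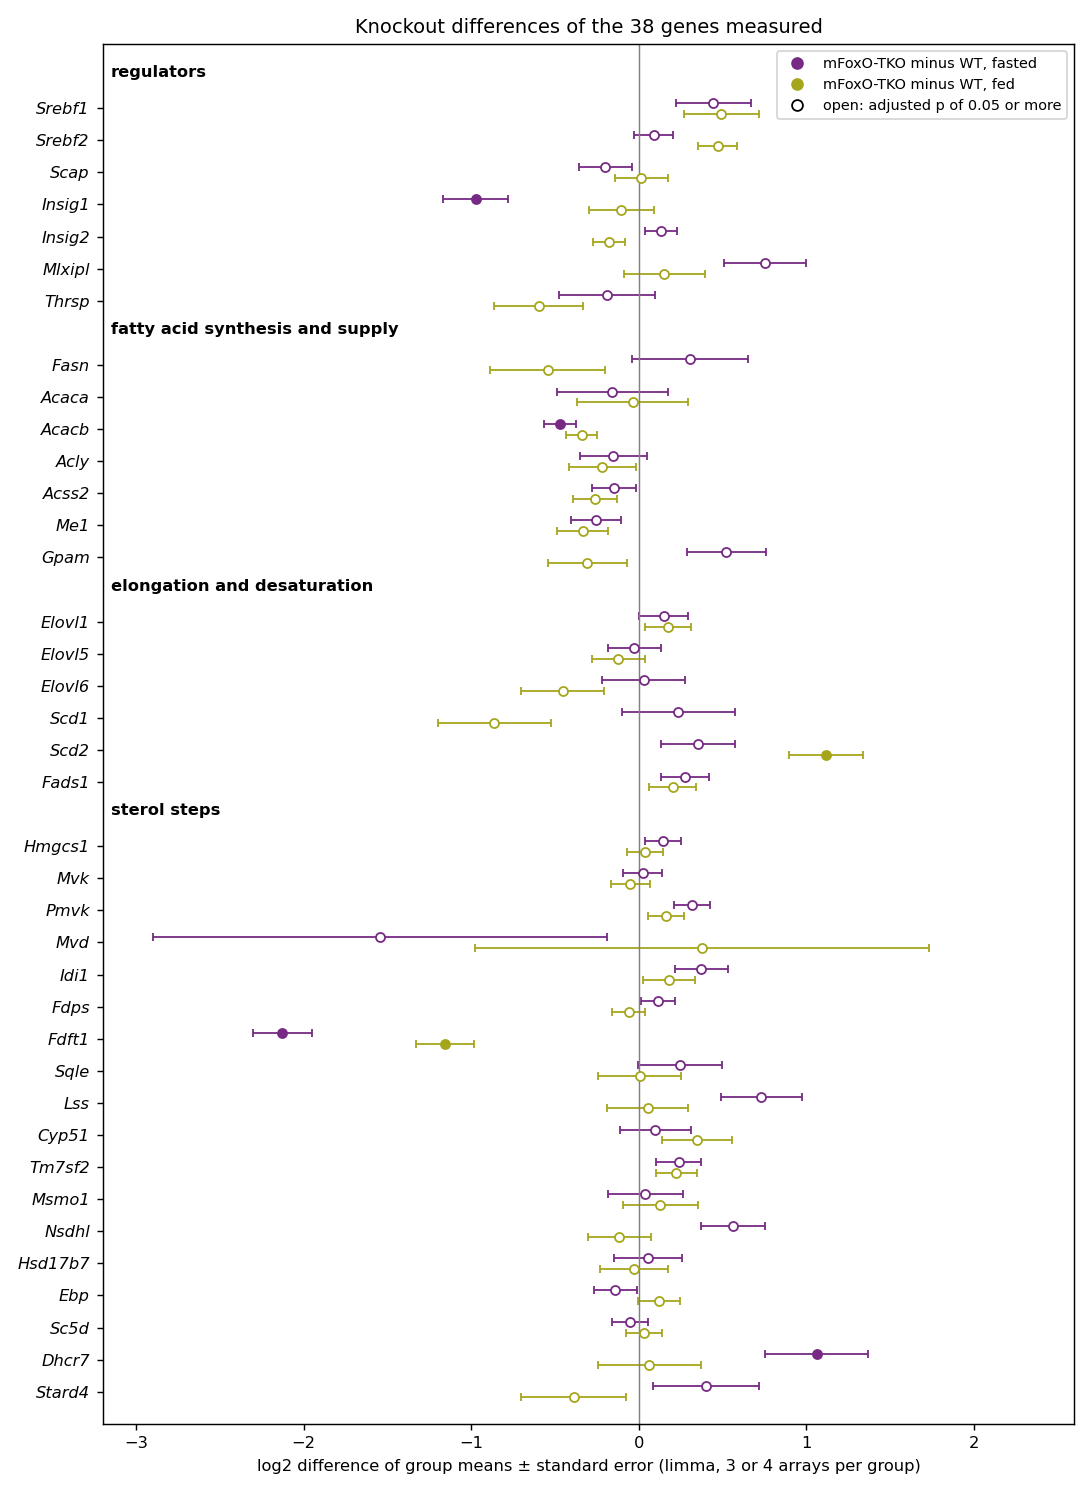
Knockout difference (mFoxO-TKO minus WT, log2, x axis) of the 38 genes measured, by role, in fasted mice (purple, upper point) and fed mice (yellow-green, lower point), with standard errors from limma as bars and open points where the adjusted p was 0.05 or more. Filled points are Insig1, Acacb, Fdft1 and Dhcr7 in fasted mice and Scd2 and Fdft1 in fed mice.

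In fasted mice, the genes that passed besides Fdft1 were Insig1 and Acacb, both lower in mFoxO-TKO muscle, and Dhcr7, higher. Insig1 differed by -0.97 ± 0.20 (1.96-fold lower, adjusted p = 0.00369), and all 4 fasted mFoxO-TKO arrays lay below all 4 fasted WT arrays. The 2 fasting changes of Insig1 differed by -0.87 ± 0.28 (adjusted p = 0.14), and by -1.06 (adjusted p = 0.0256) without fasted mFoxO-TKO replicate 1. Acacb differed by -0.47 ± 0.10 (1.38-fold lower, adjusted p = 0.00406), again with no overlap, and by -0.55 on its second probe. Dhcr7 differed by 1.06 ± 0.31 (2.09-fold higher, adjusted p = 0.0351), a call that was lost without any 1 of 6 arrays (fasted WT replicates 1, 3 and 4 and fasted mFoxO-TKO replicates 2, 3 and 4; 0.89 to 1.16 over all omissions). In fed mice Scd2 was higher in mFoxO-TKO muscle by 1.12 ± 0.22 (2.17-fold higher, adjusted p = 0.0189), with 0.56 on slide 1 and 1.67 on slide 2, and this call was lost without fed WT replicate 2, fed WT replicate 3 or fed mFoxO-TKO replicate 3 (0.94 to 1.28 over all omissions). In fasted mice Scd2 differed by 0.35 ± 0.22 (adjusted p = 0.366). Srebf1 differed by 0.44 ± 0.22 (adjusted p = 0.245) in fasted and 0.49 ± 0.22 (adjusted p = 0.412) in fed mice, and Fasn by 0.30 ± 0.34 (adjusted p = 0.651) and -0.54 ± 0.34 (adjusted p = 0.658).

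Whether fasting acted differently in the genotypes was tested gene by gene. By limma, 0 of 38 genes passed, while 0.728% of all genes passed as higher and 1.47% as lower, mFoxO-TKO minus WT. With the replicate number or the slide as a block 1 gene, Fdft1, passed. The standard errors of these differences were 0.48 for Scd1 and 0.49 for Fasn, and a p that missed the threshold does not show that the 2 falls were alike. The difference was 0.85 ± 0.49 for Fasn (adjusted p = 0.529), 0.48 ± 0.35 for Elovl6 (adjusted p = 0.657) and -0.77 ± 0.31 for Scd2 (adjusted p = 0.296), none of which passed. Without fasted mFoxO-TKO replicate 1 the genes that passed were Fdft1 and Insig1, and without fed WT replicate 1 Dhcr7 passed (1.39, adjusted p = 0.0264).

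Other genes of the pathways, from 4 lists written from general knowledge with earlier results of these data known, are given for comparison. Of 5 tested genes of SREBP processing, 0 passed on fasting in mFoxO-TKO mice, and 1 fell in WT mice, the ubiquitin ligase gene Rnf145 (-0.55 ± 0.14, adjusted p = 0.00975). In mFoxO-TKO mice Rnf145 had a change of -0.455, which did not pass, although fasted and fed arrays did not overlap. Neither knockout comparison called any of the 5. Of 7 genes of the liver X receptors (LXR, sterol-sensing factors) and their targets, 2 rose on fasting in mFoxO-TKO and 3 in WT mice. Abca1, the cholesterol exporter, rose by 0.97 ± 0.16 (adjusted p = 0.00154) in mFoxO-TKO and 0.49 ± 0.16 (adjusted p = 0.0359) in WT mice, and Lpcat3, which remodels phospholipids, by 0.75 ± 0.13 (adjusted p = 0.00246) and 0.52 ± 0.12 (adjusted p = 0.00589). In WT mice Nr1h2, which encodes LXR-beta, also rose (0.44 ± 0.12, adjusted p = 0.0132). In fasted mice Abca1 was higher in mFoxO-TKO than in WT muscle by 1.11 ± 0.16 (adjusted p = 2.72e-04) and Lpcat3 by 0.44 ± 0.13 (adjusted p = 0.039), and Nr1h2 was lower (-0.43 ± 0.12, adjusted p = 0.037). In fed mice Abcg1, a second exporter, was higher in mFoxO-TKO muscle (1.42 ± 0.30, adjusted p = 0.0264). Of these calls, the WT rise of Abca1 held in 10 of 16 fits that left out 1 array, the fasted differences of Nr1h2 and Lpcat3 in 10 and 7, and that of Abcg1 in 11.

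Of 6 further sterol genes tested, 1 rose on fasting in mFoxO-TKO mice and 2 rose in WT mice. Npc1, which releases cholesterol from lysosomes, had levels of 0.84, 0.81, 1.69 and 1.30 in fasted and -0.61, -0.56, -0.69 and -0.38 in fed mFoxO-TKO muscle. In WT mice it had 3.70, 2.96, 3.33 and 3.66 in fasted and 0.46, 0.43, 0.75 and 0.22 in fed muscle. All fasted arrays were above the fed arrays, and fasted WT muscle stood highest. Npc1 rose by 1.72 ± 0.20 (adjusted p = 2.08e-04) in mFoxO-TKO and 2.95 ± 0.20 (adjusted p = 3.14e-07) in WT mice, and the difference between the 2 rises was -1.23 ± 0.29 (adjusted p = 0.0393), a call held in 3 of the 16 fits that left out 1 array. Cyp27a1, the sterol 27-hydroxylase, rose in WT mice (1.43 ± 0.20, adjusted p = 9.95e-05) and was lower in mFoxO-TKO than in WT muscle, with differences of -2.26 ± 0.20 (adjusted p = 3.18e-06) in fasted and -1.14 ± 0.20 (adjusted p = 0.00749) in fed mice. Npc1 was lower likewise (-2.25 ± 0.20 (adjusted p = 5.13e-06) and -1.02 ± 0.20 (adjusted p = 0.0197), with the fed call held in 10 of 16 fits).

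Of 16 further genes of fatty acid and glycerolipid metabolism tested, 1 fell and 2 rose on fasting in mFoxO-TKO mice, and 4 fell and 4 rose in WT mice. Slc25a1, which exports citrate from mitochondria, had a change of -1.44 ± 0.22 (adjusted p = 0.00107) in mFoxO-TKO and -1.82 ± 0.22 (adjusted p = 3.83e-05) in WT mice. Pnpla3, a lipid droplet protein and known SREBP-1c target, fell in WT mice (-1.84 ± 0.37, adjusted p = 0.00189), as did Hsd17b12 (-0.99 ± 0.20, adjusted p = 0.00275), a reductase of chain elongation. Hsd17b12 had mean levels of -1.28 in fasted and -0.68 in fed mFoxO-TKO muscle, a difference that did not pass. Lpin1, a phosphatidate phosphatase, rose by 1.07 ± 0.15 (adjusted p = 5.90e-04) in mFoxO-TKO and 1.32 ± 0.15 (adjusted p = 2.04e-05) in WT mice, and Dgat2, which makes triglyceride, by 1.59 ± 0.24 (adjusted p = 0.00103) and 0.90 ± 0.24 (adjusted p = 0.0131). Hacd3, a dehydratase of chain elongation, rose in WT mice (0.93 ± 0.14, adjusted p = 2.88e-04). In fasted mice Pnpla3 (1.96 ± 0.37, adjusted p = 0.00225) and Tecr (0.77 ± 0.17, adjusted p = 0.00698), a reductase of chain elongation, were higher in mFoxO-TKO than in WT muscle, and Hacd3 (-0.68 ± 0.14, adjusted p = 0.00545) and Lpin1 (-0.55 ± 0.15, adjusted p = 0.0261) were lower. A second, dimmer Lpin1 probe, well above background on all arrays, did not show this difference. On it the fasted WT arrays all lay within the range of the fasted mFoxO-TKO arrays. The fasting effects on Pnpla3 differed between genotypes (2.22 ± 0.52, adjusted p = 0.038), a call held in 6 of the 16 fits that left out 1 array, and none of these genes passed in fed mice.

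Fat cells, which express Fasn, Scd1, Acly and Thrsp, can lie between muscle fibres, and their markers were followed beside these genes. Of 8 fat cell markers 7 were measured (Lep was too dim); on fasting 1 fell and 2 rose in mFoxO-TKO mice, and 2 fell and 1 rose in WT mice. Retn fell in both (-1.18 ± 0.34 (adjusted p = 0.0369) in mFoxO-TKO and -1.10 ± 0.34 (adjusted p = 0.0272) in WT mice), and Cidec rose in both (1.37 ± 0.34 (adjusted p = 0.0197) and 1.17 ± 0.34 (adjusted p = 0.0215)). Adrb3 also fell in WT mice (-1.95), and Cidea also rose in mFoxO-TKO mice (1.44). In each genotype 5 of the 7 had negative and 2 positive changes, with medians of -0.28 in mFoxO-TKO and -0.59 in WT mice. The defining markers Adipoq and Plin1 had changes of -0.28 ± 0.27 (adjusted p = 0.579) and -0.46 ± 0.34 (adjusted p = 0.458) in mFoxO-TKO and of -0.59 ± 0.27 (adjusted p = 0.128) and -0.72 ± 0.34 (adjusted p = 0.147) in WT mice, none of which passed. The summed signal of the 7, relative to the 75th percentile of each array, ran from 62.6 to 89.3 in fasted and 63.9 to 99.8 in fed mFoxO-TKO muscle, and from 67.5 to 128.9 in fasted and 73.3 to 112.7 in fed WT muscle, so fasted and fed arrays overlapped. This sum of linear signals is mostly that of the brightest marker, Cfd, and says little of the dimmer ones. Of 7 measured Schwann cell markers, a cell type that also makes sterols and expresses Scd2, 0 changed in mFoxO-TKO mice and 1 rose in WT mice, with sums of 5.74 to 15.9 in fasted and 7.59 to 19.6 in fed mFoxO-TKO muscle and 5.38 to 12.1 in fasted and 8.72 to 16.5 in fed WT muscle. The marker that rose was Mbp (0.98), while the other 6 had negative changes in WT mice that did not pass (median of the 7, -0.26). On a second, dimmer Mbp probe the fasted and fed WT arrays overlapped. In mFoxO-TKO mice 4 changes were positive and 3 negative (median 0.40). Of 6 fibroblast markers 1 fell in mFoxO-TKO and 4 in WT mice, with sums of 201.5 to 280.2 in fasted and 271.4 to 321.3 in fed mFoxO-TKO muscle and 241.8 to 341.3 in fasted and 297.0 to 382.5 in fed WT muscle. The fibroblast sum is likewise mostly that of its brightest marker, Dcn. Of 3 measured macrophage markers 2 fell in mFoxO-TKO mice, Adgre1 (-1.43) and Csf1r (-0.77), and 0 in WT mice. Of 4 endothelial markers 1, Kdr (-1.01), fell in WT mice, but on a second Kdr probe the fasted and fed WT arrays overlapped. No marker of these cell types passed between the genotypes in either state. In fed mice all 3 macrophage markers had positive differences, mFoxO-TKO minus WT (median 0.89, 1.20 on slide 1 and 0.35 on slide 2). All 7 fat cell markers had negative ones there (median -0.41). The part of these cells in the changes of the lipid genes was not tested.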

How the data were processed

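Expression was measured on 16 Agilent mouse arrays of 1 colour (Cy3), per the labels. The deposited processed signals are intensities that, per the file headers, Feature Extraction 11.0.1.1 subtracted for background within each array (the submitters' processing notes name 9.5). The deposited median spot and median background intensities served the normexp alternative (offset 50). A second deposited set of the authors' values holds linear scores, in proportion to the processed signals of the same array; it was an alternative, with a pseudocount of 1. Of 55681 probes 28331 had a symbol through RefSeq accessions; 28572 probes were well above background on all arrays of at least 1 group, giving 21281 genes (14150 with a symbol). Spots marked as outliers were left out: Msmo1 (fasted mFoxO-TKO replicate 1, fed WT replicate 1), Thrsp (fasted WT replicate 1), Elovl1 and Tm7sf2 (fasted mFoxO-TKO replicate 1). The brightest kept probe stands for a gene; 15 of the 38 genes had others.

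Log2 signals minus the 75th percentile of each array were fitted as 4 group means over all 16 arrays in limma 3.58.1 (R 4.3.3; lmFit and eBayes, 12 residual degrees of freedom), with Benjamini-Hochberg adjustment over 21281 genes. The number of arrays limits the precision, and each p-value sets a difference against the spread within groups. That spread holds differences between slides as well as between mice, and limma shares part of its estimate over genes. The model was tested on simulated data with independent noise of equal spread in every group. That simulation held no slide effect, pairing or outlying array. Members and lists were chosen with earlier results of these data known. Array values are given for Srebf1, Srebf2, Insig1 and, per role and comparison, up to 3 passing genes of largest change; genes of other lists are named where they passed with the 3 largest changes in a direction, and some results of the further sterol genes are not reported here. The deposited headers name mouse build mm9, so no array coordinates are given; promoters are RefSeq GRCm38.p6.

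Replicates 1 and 2 lay on slide 1 and 3 and 4 on slide 2. Groups each held 1 column of a slide, so array position and group cannot be told apart. Same-numbered mice deviated together from their group means with correlations of 0.141 to 0.392 (fasted and fed mFoxO-TKO), 0.105 to 0.303 (genotypes, fasted), 0.164 to 0.329 (genotypes, fed) and 0.055 to 0.311 (fasted and fed WT), so the replicate number was treated as a possible pairing in all but the last. Differently numbered mice of the same slide had correlations of -0.027 to 0.311 (mean 0.142, against 0.222 for the same number). Number and slide are therefore not well told apart. The main fit held neither as a block. Alternatives were normexp, quantile normalization, other percentiles, the authors' values, other filters and probes, slide or replicate number as a block, each slide alone and each array left out.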

Additional observations from a re-analysis of the deposited data

Results flagged for a closer look

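In 9 of the 147 sets of 4 arrays examined for these genes, 1 array lay apart from the other three by more than Dixon's critical ratio for 4 values; chance gives about 1 in 20. The gene with the most distant array was Mvd in fasted WT replicate 3, at 7.73 where the next highest array had -0.42. In fasted mFoxO-TKO muscle, replicate 1 was low for Acaca, at 0.79 with the next at 2.34, and high for Fdft1, at 1.99 with the next at 1.53. Replicate 3 of that group was low for Scap, at 2.57 with the next at 3.38, and replicate 2 was high for Acly, at 2.10 with the next at 2.02. In fed mFoxO-TKO muscle, replicate 1 was high for Mvd at 0.53, Cyp51 at -1.34 and Hsd17b7 at -0.74, where the next arrays had 0.11, -1.96 and -1.48. In fasted WT muscle, replicate 2 was high for Tm7sf2, at 1.44 with the next at 1.21.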

How the results depend on the processing

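For the genes called in the 5 comparisons, 424 values under alternatives other than leaving out an array kept direction and side of the threshold, 73 kept direction but no longer passed, and 1 changed sign: Fdft1 in WT fasting, at -0.28 (adjusted p = 0.781) on its next probe. When 1 array was left out, 609 values kept their side and 47 no longer passed. Leaving out each array gave 2 to 3 genes higher and 15 to 20 lower in WT fasting, 1 to 2 higher and 9 to 15 lower in mFoxO-TKO fasting (9 without fasted mFoxO-TKO replicate 3), 0 to 3 higher and 3 lower for the knockout in fasted mice, 0 to 2 higher and 1 lower in fed mice, and 0 to 1 higher and 0 to 2 lower for the difference between fasting effects.

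Slide 1 alone gave 7 lower in WT fasting, 0 higher and 1 lower in mFoxO-TKO fasting, 0 higher and 1 lower for the knockout in fasted mice and 0 and 0 in fed mice. Slide 2 alone gave 3 higher and 7 lower in mFoxO-TKO fasting and 0 and 0 for the knockout in fed mice. These fits hold 2 mice per group. With the replicate block, or with the slide as a block, 2 genes were higher in mFoxO-TKO fasting, 3 higher for the knockout in fasted mice, 2 higher in fed mice and 1 lower for the difference; the replicate block moved no other count of these genes by over 1.5 times and ended no call. In WT fasting, where the numbers do not count as pairs, the block gave 3 higher, adding Insig1 (adjusted p = 0.0432).

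For the knockout in fasted mice, genes higher numbered 0 with normexp, 0 with no filter on dim probes, 2 on next probes, 3 with quantile normalization, 3 with probes well above background on all arrays, 5 with the authors' values and 6 with the percentile over probes detected on all arrays. In fed mice the last gave 2 higher and 2 lower, the authors' values 2 lower, next probes 0 lower and no filter 0 higher. The difference had 1 lower with normexp, the authors' values, the percentile over detected probes and the stricter filter. In mFoxO-TKO fasting the authors' values gave 2 higher, and next probes gave 1 higher in WT fasting. The cause of these moves was not tested. The percentile over detected probes moved the median of all genes in WT fasting to -0.13, against -0.02.

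Over all genes, the calls in WT fasting numbered 5303, and 1366 on slide 1. In mFoxO-TKO fasting they numbered 2365, and 105 and 1358 within slides 1 and 2, 1418 with no filter. For the knockout in fasted mice they numbered 2652 and 484 and 1567 within the slides; in fed mice 315, and 160 and 34 within the slides, 169 with no filter, 176 with normexp and 601 with the slide as a block. For the difference they numbered 468, and 6 and 43 within the slides, 202 with no filter, 240 with the percentile taken without outlier spots, 789 with the replicate block and 897 with the slide as a block; that percentile was added after seeing the data. Dim probes limit what can be said of Fads2 and of some second probes, such as those of Srebf2, Fdft1 and Nsdhl. Other second probes, such as those of Mlxipl and Acacb, were well above background on all arrays.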
